A study of Mus musculus with 2 samples.

Results

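Monoubiquitylated histone H2A (uH2A) was examined at the genes of 67 developmental regulators whose promoters, described as CpG-rich, carry H3K27me3 and not H3K4me3. The members were taken from the supplied rows of the study's gene table, which are the beginning of that table and not all of it. They are the genes of the H3K27me3-only class whose symbols start with the name of a developmental transcription factor family, such as Hox, Pax, Sox, Fox, Lhx, Nkx, Pou or Tlx. Of the genes in these rows, 636 were H3K27me3-only and 1363 were H3K4me3-only, so the members are 67 of 636 genes of their class. The choice used promoter class and gene name and no tag count, but it was made with earlier results of these data known. The same holds for the role groups and gene lists used below. A name start can be misleading, and Six6os1 entered by its name although its product is known as a protein of the meiotic synaptonemal complex and not as a transcription factor.

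Polycomb repressive complexes keep developmental regulators silent in cells where these genes are not used. PRC2 methylates lysine 27 of histone H3, and PRC1, of which Bmi1 is a subunit, ubiquitylates histone H2A. Genes for transcription factors that choose the fate of a lineage are the classic targets of both complexes, and most of the factors described here serve neurons, heart, muscle, gut or germ cells and not fibroblasts.

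The study mapped uH2A by ChIP-Seq in mouse embryonic fibroblasts (MEFs) of C57BL/6 background with the E6C5 antibody, which recognises uH2A. There was 1 library from Bmi1 WT cells, here called wild-type, and 1 from Bmi1 KO cells, here called null, and both lines came from littermates, were immortalized with TBX2 and received no further treatment. Each genotype is therefore represented by 1 immortalized line, and a difference between the lines or between the immunoprecipitations cannot be told apart from the genotype. The Bmi1 gene itself was not analysed here, so the labels of the libraries were not checked against it.

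The wild-type library held 6114925 tags, the 25 bp reads placed at a single position of the mm8 genome, and the null library held 8020248. With all tags and library totals, the wild-type counts were brought to the depth of the null library by a factor of 1.31. Counts with 1 tag per position and strand were scaled by 1.28, and the local scale described below has its own factor for each gene. A scaled ratio above 1 means that the wild-type library held more uH2A tags than the null library for its depth. With 1 library per genotype no test was possible, and the 95% intervals given below for ratios (Clopper-Pearson) and counts (Poisson) cover counting error only. Those for shares of genes (Clopper-Pearson) treat the genes as independent draws and leave out the counting error at each gene. Tags amplified by PCR are not independent molecules, and repeats of a position and strand made up 33.0% of the wild-type and 34.5% of the null library.

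From 5 kb before to 5 kb after the transcription start site (TSS), the 67 genes together held 3347 wild-type tags and 3186 null tags. This is 6.55 scaled wild-type tags per kb against 4.76 null tags per kb, a ratio of 1.38 (1.31 to 1.45). The other 569 H3K27me3-only genes had the same ratio, 1.38 (1.36 to 1.41), and the 1363 H3K4me3-only genes had 1.13 (1.12 to 1.15). So, with library totals, the developmental regulators held more tags of the uH2A immunoprecipitation in the wild-type than in the null library, by as much as the rest of their promoter class.

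A gene was called when the libraries differed by 1.5-fold or more. By this rule 25 of the 67 members (37.3%) were higher in the wild-type library, where 26.3% of all genes in the supplied rows were. The share was 38.3% among the other H3K27me3-only genes and 20.7% among the H3K4me3-only genes. In the opposite direction, 0 members were called, which allows a share of up to 5.36%, beside 8.45% of all genes, 3.69% of the other H3K27me3-only genes and 10.9% of the H3K4me3-only genes. At 24 members the whole interval was above 1, as it was at 22.9% of all genes, and at 0 members it was below 1, as it was at 4.90% of all genes. These intervals treat repeated tags as independent. With repeats of a position and strand removed, the interval was above 1 at 13 members (19.4%), next to 20.2% of the other H3K27me3-only and 7.85% of the H3K4me3-only genes. With all tags, the other 43 intervals of members included 1, so at this depth a difference was not detectable there. The median ratio of the members was 1.34 (interquartile range 1.08 to 1.70), and the medians of the other H3K27me3-only and the H3K4me3-only genes were 1.35 and 1.09.

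**Figure D1:**
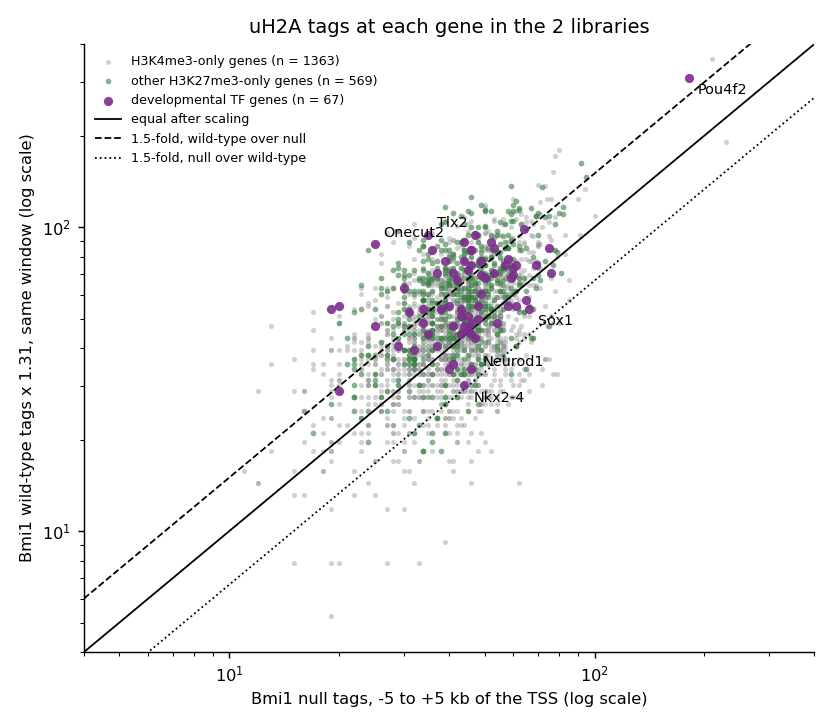
Each point is 1 gene, with null tags on the x axis and scaled wild-type tags on the y axis, both counted within 5 kb of the TSS and on log scales; the solid line marks equal values and the broken lines 1.5-fold. The 67 developmental regulators in purple lie mostly above the solid line, with 25 on or above the upper broken line and 0 below the lower one, and they overlap the cloud of the other H3K27me3-only genes.

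The count of members was also taken with repeated tags removed and with another scale. With 1 tag per position and strand, 21 members (31.3%) were at 1.5-fold or more, where 20.8% of all genes and 31.6% of the other H3K27me3-only genes were. Of the 25 members called with all tags, 17 were also called this way, a count given for the members only. When the wild-type tags of each gene were scaled by the tags 50 to 500 kb away on either side, the pooled ratio of the members was 1.26, and that of the other H3K27me3-only genes was 1.18. At the H3K4me3-only genes it was 1.03. The pooled ratio was thus lower at every set by this local scale. With it 21 members (31.3%) were at 1.5-fold or more in the wild-type library, where 17.6% of all genes were, and 1, Sox1, in the null library, where 11.2% of all genes were. The share in the wild-type direction was 23.4% among the other H3K27me3-only genes and 14.5% among the H3K4me3-only genes. The observed shares of the members and of the rest of their class thus lay further apart with this scale than with library totals. A difference between these shares was not tested. Of the 25 members called with library totals, 18 remained called, again a count given for the members only. Of the called H3K4me3-only genes, 65.6% were higher in the wild-type library with library totals and 50.6% with the local scale.

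The excess of wild-type tags was centred on the gene and faded with distance. Within 1 kb of the TSS the members held 826 wild-type and 769 null tags, a ratio of 1.41 (1.28 to 1.56), and at 1 to 5 kb the ratio was 1.37 (1.29 to 1.45). It was 1.21 (1.15 to 1.28) at 5 to 10 kb, 1.18 at 10 to 20 kb and 1.14 (1.12 to 1.16) at 50 to 100 kb. At the H3K4me3-only genes the ratio fell from 1.33 within 1 kb to 1.06 (1.05 to 1.08) at 1 to 5 kb, and was 1.10 at 5 to 10 kb and 1.13 at 50 to 100 kb, close to the members' 1.14 there. The other H3K27me3-only genes went from 1.56 within 1 kb to 1.33 (1.30 to 1.35) at 1 to 5 kb and still had 1.22 at 50 to 100 kb. The members thus differed from the H3K4me3-only genes mainly in the flanks, where the ratio of the H3K4me3-only genes was close to 1, and less at the TSS, where all sets were above 1.

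Each library can also be read without scaling, against its own level 50 to 100 kb away. By that measure the wild-type density at the members was 1.83 times the distant level within 1 kb and 1.40 times at 1 to 5 kb. The null density was 1.48 and 1.17 times its distant level. Without Pou4f2, whose tags piled up at a single position, the values at 1 to 5 kb were 1.29 in the wild-type and 1.10 in the null library. The null library therefore still showed a rise of tags at these TSSs, lower than that in the wild-type library. Such a rise was common to the gene sets, with 1.76 in the wild-type and 1.37 in the null library within 1 kb at the other H3K27me3-only genes and 1.82 and 1.55 at the H3K4me3-only genes. No input library was used here, so the part of this rise that reflects uH2A was not tested.

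**Figure D2:**
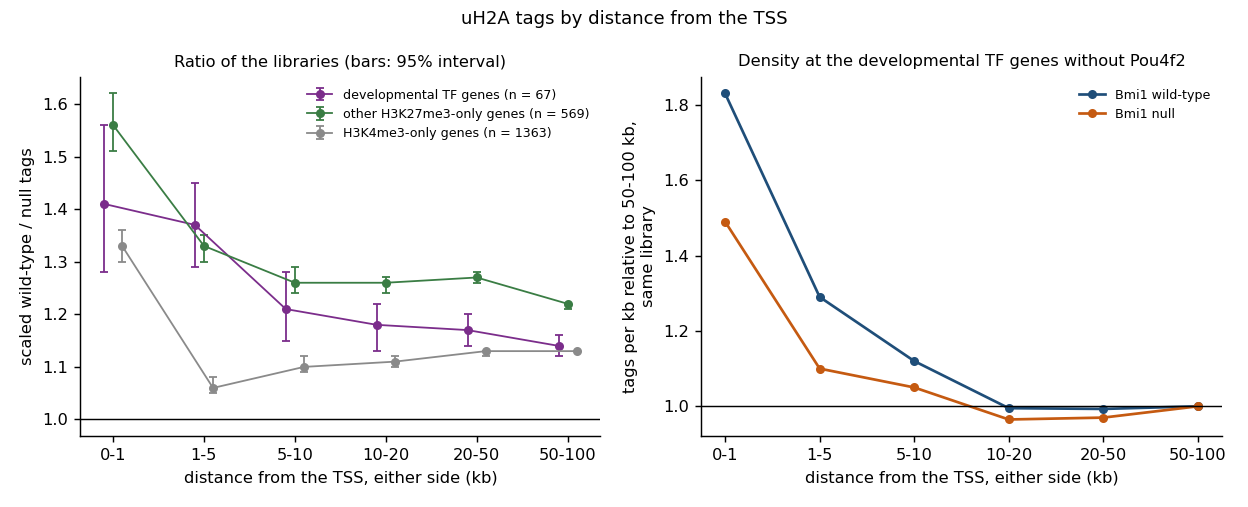
The left panel plots the ratio of scaled wild-type to null tags against distance from the TSS for the 3 gene sets, with 95% intervals, and the right panel plots tags per kb of each library relative to its own level at 50 to 100 kb for the members without Pou4f2. The members fall from 1.41 within 1 kb to 1.14 at 50 to 100 kb, and the wild-type density lies above the null density within 10 kb of the TSS.

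In 200 bp bins within 1 kb of the TSS, the members averaged 1.62 scaled wild-type tags (1.51 to 1.73) and 1.15 null tags (1.07 to 1.23) per bin and gene, a difference of 0.469. The rest of the H3K27me3-only class had a difference of 0.603, and the H3K4me3-only class one of 0.377. The members lay between both sets in this measure with all tags, and the intervals of their ratio within 1 kb overlapped those of each set. The members' difference was 0.288 with 1 tag per position and strand, 0.227 with 0-mismatch tags and 1.10 with negative bins set to 0. These values are given for the members only, so the order of the sets holds for all tags. At 1.5-fold or more within 1 kb were 30 members (44.8%), close to the 43.6% of all genes, and counts in this narrow window were low, between 1 and 23 wild-type tags per member. The members' wild-type profile was broad and not sharply peaked. Without Pou4f2 it was highest from 600 to 800 bp downstream, at 2.15 scaled tags per bin (1.76 to 2.59), and nearly as high just after the TSS, at 2.13 (1.74 to 2.57).

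**Figure D3:**
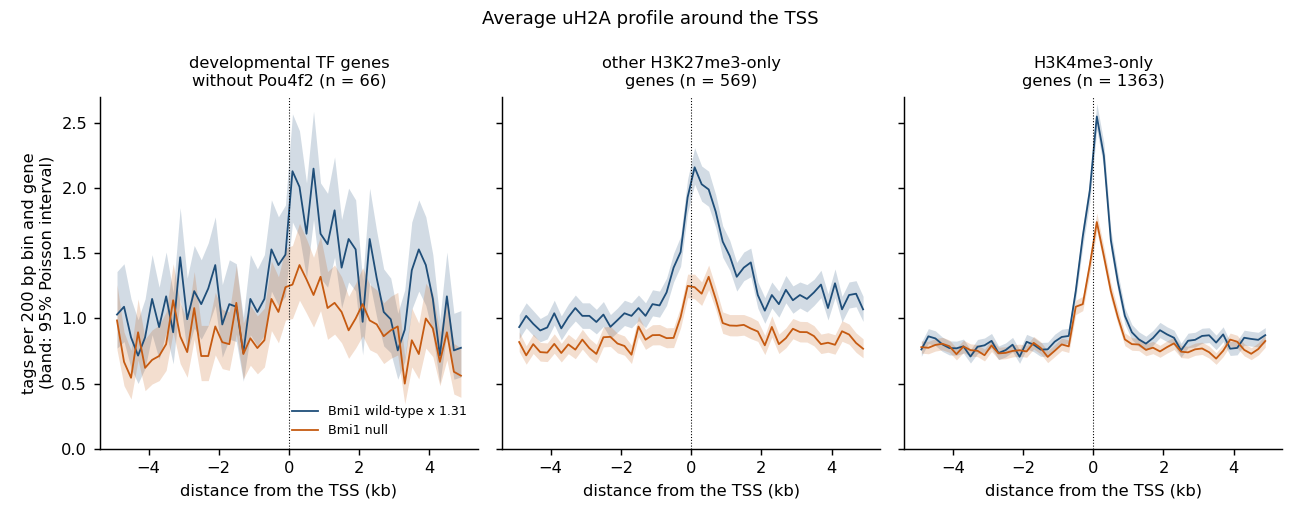
Average tags per 200 bp bin and gene are plotted against distance from the TSS for scaled wild-type tags in blue and null tags in orange, with bands for the 95% Poisson interval. At the developmental regulators, drawn without Pou4f2, the wild-type line reaches 2.15 downstream of the TSS and lies above the null line over much of the window. At the H3K4me3-only genes the lines run close together outside the central peak. The wild-type line there is still mostly the higher downstream, with a ratio of 1.09 (1.07 to 1.11) from +1 to +5 kb.

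The members were grouped by broad role, with a mixed group of germ line and other genes that also holds Onecut2 and Nkx2-4. The 33 neural genes held 1775 wild-type and 1614 null tags, a ratio of 1.44 (1.35 to 1.54), and 15 of them were at 1.5-fold or more, next to 26.3% of all genes and 38.3% of the other H3K27me3-only genes. Without Pou4f2 the neural ratio was 1.41, and in distinct tags the neural genes had 1.34, below the 1.40 of the mesodermal genes counted that way. For the 13 mesodermal genes, which include regulators of heart, muscle and spleen, the ratio was 1.39 (1.24 to 1.55) with 5 called. The 6 endodermal and epithelial genes had 1.38 (1.16 to 1.65) with 2 called, and the 10 germ line and other genes 1.24 (1.08 to 1.42) with 2 called. Without Onecut2 the latter had 1.10 (0.945 to 1.27). For the 5 Hox genes the ratio was 1.18 (0.983 to 1.41), with 1 called. The intervals of the whole groups overlapped. Without Onecut2, the interval of the germ line and other genes lay below the neural one, also when Pou4f2 was left out of the latter (1.31 to 1.51). Onecut2 has the highest ratio of all members (3.52), so leaving it out lowers its group by construction, while the neural group kept its own highest genes. With 1 tag per position and strand the whole germ line and other group had 1.29, beside the neural 1.34. A difference between the groups was not tested.

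Among gene families with 2 or more members, the Lhx, Onecut, Tlx and Pou families had the highest pooled ratios with all tags and library totals. With 1 tag per position and strand, the Lhx and Pou ratios were both 1.44, below the 1.5 of the Tbx family. Without Pou4f2 the Pou ratio counted that way was 1.53. Lhx3 and Lhx5 together had 1.97 (1.49 to 2.61), Onecut2 and Onecut3 1.89 (1.42 to 2.52), and the 3 Tlx genes 1.88 (1.5 to 2.37). The Lhx ratio was 1.38 with the local scale and the Tlx ratio 1.70. The Onecut value rested on Onecut2, since Onecut3 had a ratio of 1.23, and of 0.840 with the local scale. At the other end, the 3 Sox genes had 0.982 (0.765 to 1.26), and this stayed below 1 with 1 tag per position and with the local scale. The 3 Prdm genes had 0.955 (0.740 to 1.23), which turned to 1.08 with 1 tag per position and to 1.02 with the local scale. The 8 Nkx genes ranged from 0.686 (0.395 to 1.16) at Nkx2-4 to 1.76 (1.17 to 2.66) at Nkx6-1, the ends of a range picked after the values were seen, and a difference among them was not tested.

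Several of the highest ratios were at regulators of neurons, and 33 of the 67 members belong to the neural group. Foxd3, a specifier of the neural crest, held 41 wild-type and 19 null tags, a ratio of 2.83 (1.61 to 5.16). Pou3f2, a POU factor of cortical progenitors and neurons, held 42 and 20 tags, with a ratio of 2.75 (1.58 to 4.95). Tlx2, needed in the enteric nervous system, held 72 and 35 tags, with a ratio of 2.70 (1.78 to 4.16). These genes were raised in the wild-type library over different stretches of the window. At Foxd3 the excess lay downstream, with 23 wild-type and 3 null tags from +1 to +5 kb and 5 and 6 tags within 1 kb, while Pou3f2 held 13 and 3 tags within 1 kb. Lhx3, a LIM homeobox factor of the pituitary and of motor neurons, had 64 and 36 tags (2.33, 1.53 to 3.61). Neurod2, a bHLH factor of differentiating neurons, had 72 and 47 (2.01, 1.37 to 2.97). Foxn4, a factor of retinal and spinal progenitors, was the called member nearest to the threshold at 1.54 (1.28 with 1 tag per position and 1.11 with the local scale, both below the fold), and Six6os1, at 1.44, was the nearest member that was not called.

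Of the 12 members with a ratio at or below 1, 7 were neural, and 33 of all 67 members are neural, so low ratios were not particular to this group. Neurod1, a bHLH factor of neurons and pancreatic endocrine cells, had 26 wild-type and 46 null tags, a ratio of 0.741 (0.440 to 1.22). Within 1 kb of its TSS it had 1 wild-type tag and 10 null tags, a ratio of 0.131 (0.00302 to 0.922). Sox1, an early marker of the neural plate, held 41 and 66 tags (0.815, 0.538 to 1.22), and with the local scale its ratio was 0.615, past the fold in the null direction. From +1 to +5 kb it held 11 and 37 tags (0.390, 0.179 to 0.781). Six6, a homeobox factor of eye and pituitary, held 26 and 40 (0.853, 0.500 to 1.43). Over the whole window the intervals of these 3 genes include 1, so a higher level in the null library was not detectable there at this depth. The parts of the window with an interval below 1, at Neurod1 and Sox1, were picked after their counts were seen. Neurod1 and Neurod2, which belong to the same bHLH family, were thus among the lowest and the highest members.

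Pou4f2, a factor of retinal ganglion cells, stood apart from the other members. It held the most tags of any member, 236 wild-type and 181 null, but 193 and 122 of these lay at a single position and strand 4640 bp upstream of the TSS. With 1 tag per position and strand its ratio of 1.71 was 1.11. Without Pou4f2 the pooled ratio of the members was 1.36 (1.29 to 1.43), and upstream, 1 to 5 kb before the TSS, it was 1.29 (1.19 to 1.41) in place of 1.37.

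Among the mesodermal genes, Pax7, which marks muscle satellite cells, held 48 wild-type and 30 null tags, a ratio of 2.10 (1.30 to 3.43) that was 1.26 with the local scale and then not called. Barx1, a homeobox factor of stomach mesenchyme, held 68 and 44 tags (2.03, 1.37 to 3.03). Barx1 and Irx4, a factor of the ventricular heart, each held 23 wild-type tags against 8 null tags within 1 kb of the TSS, the most wild-type tags there of any member. The most null tags within 1 kb were at Olig2, a bHLH factor of motor neurons and oligodendrocytes, where 27 null tags stood against 21 wild-type tags. Olig2 is an example of a developmental regulator with abundant tags in both libraries, and its ratio over the whole window was 1.22 (0.835 to 1.79).

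Onecut2, a cut-homeodomain factor of liver, pancreas and neural tissue, had the highest ratio of all members. It held 67 wild-type and 25 null tags, a ratio of 3.52 (2.19 to 5.81), and this was 3.11 with 1 tag per position and 3.76 with the local scale. Most of its wild-type tags lay inside the gene, with 40 wild-type and 9 null tags from +1 to +5 kb. The lowest ratio with library totals was at Nkx2-4, a homeobox relative of the thyroid and forebrain factor Nkx2-1. It held 23 wild-type and 44 null tags, a ratio of 0.686 (0.395 to 1.16), and was the nearest member to the fold of 1.5 in the null direction, that is a ratio of 0.667. Its ratio was 0.769 with 1 tag per position and 0.739 with the local scale, by which Sox1 (0.615) and Foxl1 (0.734) were lower.

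**Figure D4:**
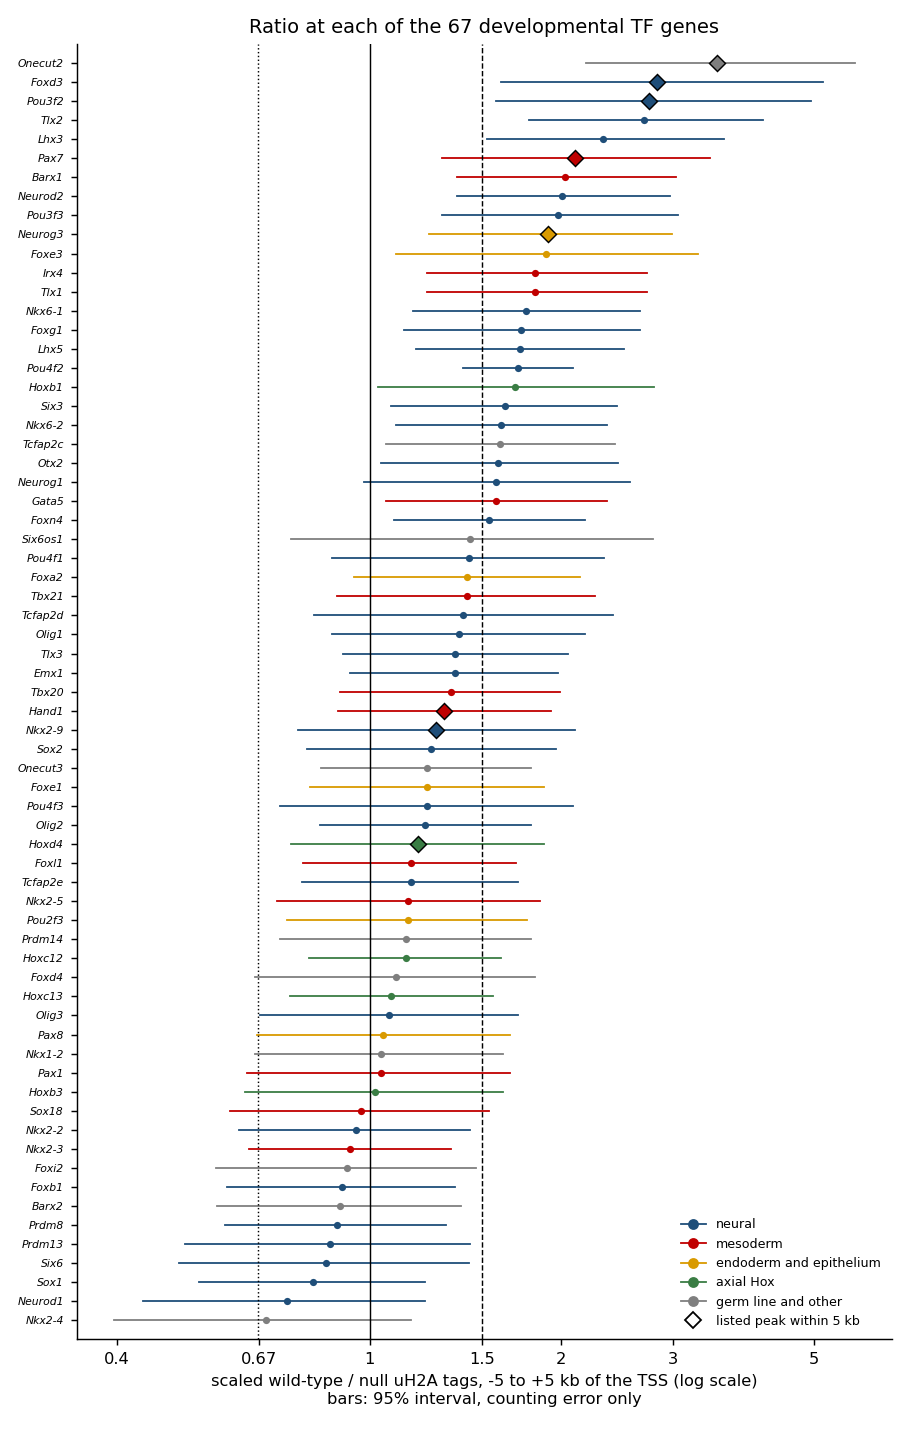
The ratio of scaled wild-type to null tags within 5 kb of the TSS is plotted on a log axis for each of the 67 genes with its 95% interval, coloured by role, and diamonds mark genes with a listed peak within 5 kb. Ratios run from 0.686 at Nkx2-4 to 3.52 at Onecut2, and the intervals of 43 genes include 1.

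The Hox genes, which set position along the body axis, are the best known Polycomb targets, yet the 5 members showed a small difference over 10 kb. Hoxb1, a hindbrain gene, held 40 wild-type and 31 null tags, a ratio of 1.69 (1.03 to 2.80). Hoxd4 held 39 and 43 tags (1.19, 0.751 to 1.88), Hoxc12 65 and 75 (1.14, 0.803 to 1.61), Hoxc13 57 and 69 (1.08, 0.749 to 1.56) and Hoxb3 35 and 45 (1.02, 0.637 to 1.62). Apart from Hoxb1, each of these intervals includes 1. Within 1 kb of the TSS the 5 genes together had 63 wild-type and 52 null tags, a ratio of 1.59 (1.08 to 2.34), whose interval overlaps that over 10 kb. Hoxd4 contributed 10 wild-type and 2 null tags to this, and without it the ratio was 1.39 (0.927 to 2.09). The pooled Hox ratio over 10 kb was 1.05 with the local scale.

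Some members are neighbours on a chromosome, which allowed the DNA from start to start to be counted. These stretches include the parts of the members' own windows that lie between the starts, so they are not separate from the counts above. Between the starts of Hoxc13 and Hoxc12, 15.7 kb apart, 77 wild-type tags stood against 131 null tags, a ratio of 0.771 (0.574 to 1.03). Between Olig2 and Olig1, 44.2 kb apart, there were 172 and 159, a ratio of 1.42 (1.14 to 1.77), and between Hoxb3 and Hoxb1, 42.6 kb apart, 171 and 180 (1.25, 1.0 to 1.54). The observed ratios of these stretches differed with all tags and library totals, and a difference between them was not tested. Six6 and Six6os1, 22.2 kb apart, had ratios of 0.853 and 1.44 with 1.09 (0.736 to 1.62) between them. On chromosome 2, the ratio was 0.949 (0.782 to 1.15) from Nkx2-4 to Nkx2-2, 1.04 (0.920 to 1.18) from there to Pax1, a sclerotome gene, and 0.954 (0.894 to 1.02) from Pax1 to Foxa2, a regulator of endoderm. Prdm13 and Pou3f2, 802 kb apart on chromosome 4, had 0.864 and 2.75 at their own windows and 1.13 (1.06 to 1.20) between them. On chromosome 11, the ratio between Hoxb1 and Tbx21, a regulator of T helper cells, was 1.08 (1.02 to 1.13). The ratio of a whole chromosome ran from 0.892 to 1.14, and the pooled ratio of the members was above that of their chromosome on 19 of 19 autosomes, with an interval that included the chromosome's ratio on 6 of these. The same tally of 19 held for the other H3K27me3-only and for the H3K4me3-only genes.

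The authors' list of peaks, made with the null library as background, placed a peak within 5 kb of the TSS of 8 members (11.9%, 5.30% to 22.2%), next to 11.7% of all genes in the supplied rows. For the rest of the H3K27me3-only class the share was 16.0%, and for the H3K4me3-only class it was 9.90%. Within 1 kb of the TSS there was a peak at 3 members (4.48%), next to 4.15% of all genes. Developmental regulators were thus not richer in listed peaks than the gene table as a whole. Since peaks were selected for an excess of wild-type tags in these libraries, the ratios inside them describe the peaks and are no independent evidence.

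Only 3 of the peaks came within 1 kb of a TSS, and those of Pou3f2 and Hoxd4 covered it. The peak at Pou3f2, on mm8 chromosome 4 from 22576973 to 22579025, runs from 59 bp before to 1993 bp after the TSS and held 24 wild-type and 2 null tags, a ratio of 15.7 (3.91 to 137). At Hoxd4, on chromosome 2 from 74522750 to 74524688, there were 19 and 4 tags (6.23, 2.07 to 25.2). At Nkx2-9, a factor of the ventral neural tube, the peak on chromosome 12 from 57529930 to 57530929 held 17 and 3 tags (7.43, 2.15 to 39.6). These genes show how a local peak and the whole window can differ. The ratio over 10 kb was 2.75 at Pou3f2 but 1.19 at Hoxd4 and 1.27 at Nkx2-9.

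The peak at Onecut2 lies inside the gene, on chromosome 18 from 64469017 to 64470960, and held 30 wild-type and 3 null tags, a ratio of 13.1 (4.08 to 67.2). The other 4 peaks reach the window only at its upstream edge. At Pax7 the peak on chromosome 4 from 139109652 to 139112086 held 27 and 4 tags, of which 1 and 0 fell inside the 10 kb window. At Foxd3 the peak on chromosome 4 from 99142776 to 99144048 held 22 and 4 tags, of which 2 and 1 fell inside. At Neurog3, which drives endocrine cells of the pancreas, the peak on chromosome 10 from 61522044 to 61523839 held 20 and 8 tags, with 2 and 0 inside. The high ratios of these 3 genes over the window thus came from tags other than those of their peaks. That of Neurog3, with 54 wild-type and 37 null tags, was 1.91 (1.24 to 2.99), and it was 1.44 with 1 tag per position. At Hand1, a bHLH factor of heart and trophoblast, the peak on chromosome 11 from 57652923 to 57653600 held 16 and 4 tags at 7 and 3 distinct positions and strands. Of these tags, 12 and 2 fell inside the window, so most tags of this peak were counted in it.

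**Figure D5:**
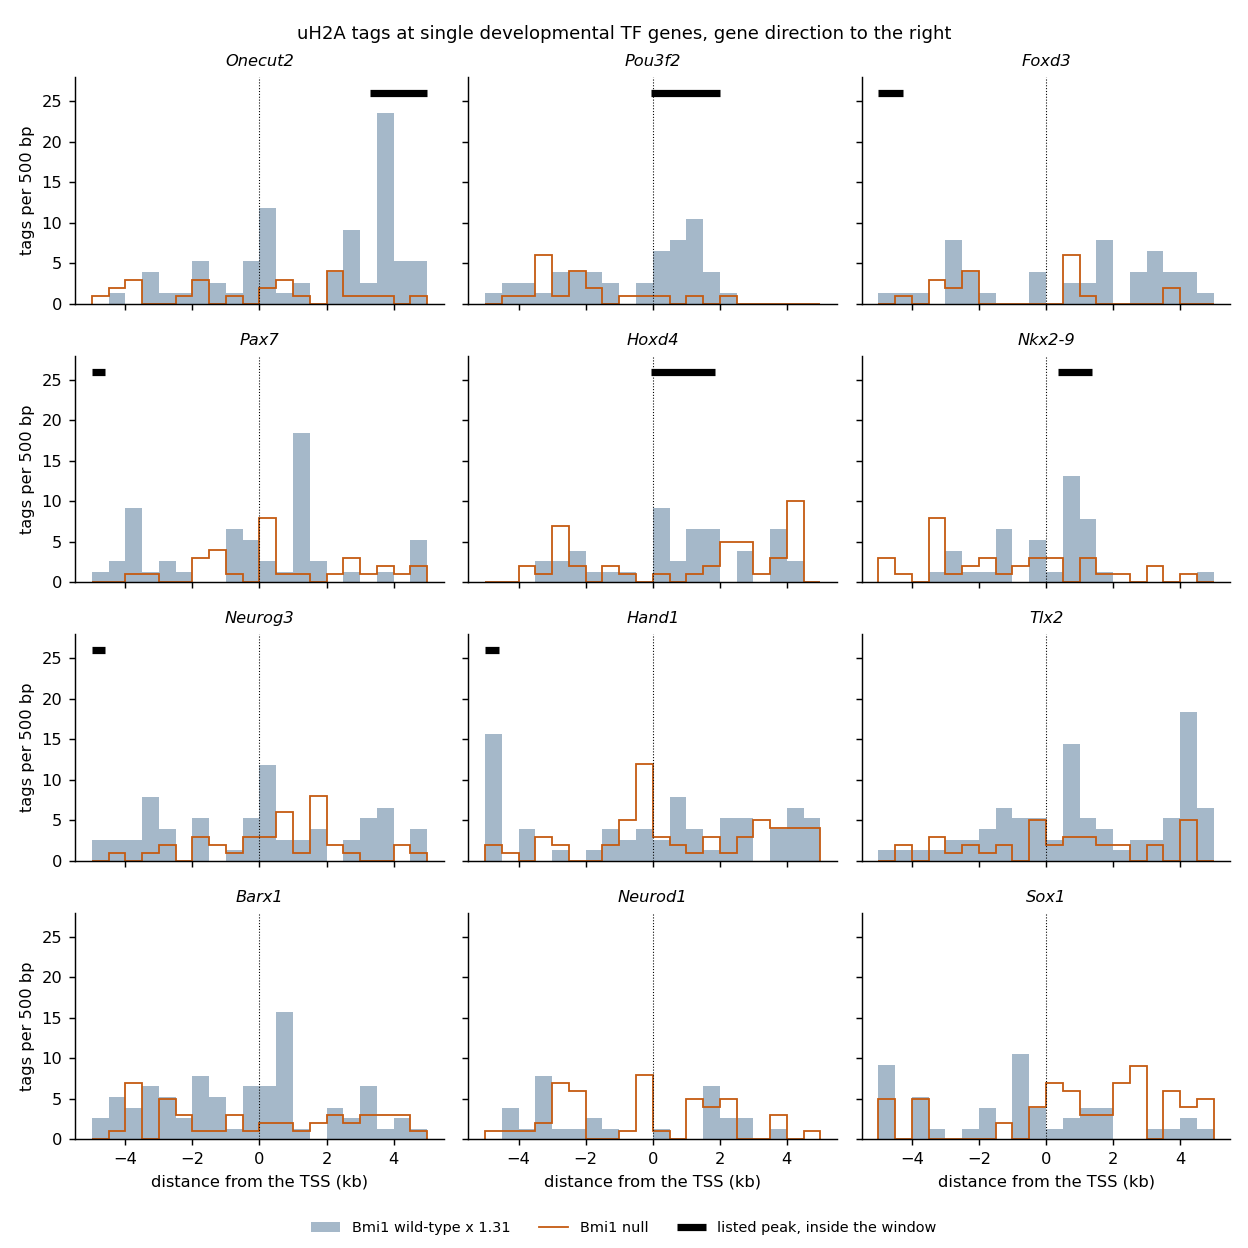
Tags per 500 bp are plotted against distance from the TSS for 12 members, with scaled wild-type tags as filled blue bars, null tags as an orange line and the part of a listed peak inside the window as a black bar. The wild-type tags of Pou3f2 gather just after the TSS and those of Onecut2 near +4 kb, while at Neurod1 and Sox1 the null line is often the higher.

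The promoters themselves are shown for 3 members of high and 3 of low ratio that have a single entry in the RefSeq promoter table, because all members were described as having CpG-rich promoters. The table, of the GRCm38.p6 build, matched 48 of the 67 members (71.6%), by present or older symbol, so a comparison of CpG content over the whole set was void. The 250 bases before the RefSeq start of each gene are given 5′ to 3′ on the strand of the gene, with every CpG in capitals. The first 3 had high ratios and the last 3 low ratios, and the promoter of Onecut2, the highest member, is not shown here.
Foxd3: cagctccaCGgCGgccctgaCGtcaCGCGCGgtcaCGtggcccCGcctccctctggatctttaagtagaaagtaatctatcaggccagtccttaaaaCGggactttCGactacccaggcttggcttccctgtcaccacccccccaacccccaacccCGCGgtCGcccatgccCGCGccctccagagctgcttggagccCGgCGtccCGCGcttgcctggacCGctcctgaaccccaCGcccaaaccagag
Pou3f2: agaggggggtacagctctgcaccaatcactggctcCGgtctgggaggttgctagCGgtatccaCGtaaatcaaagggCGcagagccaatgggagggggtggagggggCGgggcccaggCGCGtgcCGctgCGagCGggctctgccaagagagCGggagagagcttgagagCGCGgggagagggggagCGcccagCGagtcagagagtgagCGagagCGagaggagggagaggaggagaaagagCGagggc
Pax7: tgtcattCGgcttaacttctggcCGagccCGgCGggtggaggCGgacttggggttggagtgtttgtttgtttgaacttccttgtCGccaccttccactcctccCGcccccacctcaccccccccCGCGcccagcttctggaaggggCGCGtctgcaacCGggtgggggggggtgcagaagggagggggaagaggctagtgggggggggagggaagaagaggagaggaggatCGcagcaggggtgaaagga
Nkx2-4: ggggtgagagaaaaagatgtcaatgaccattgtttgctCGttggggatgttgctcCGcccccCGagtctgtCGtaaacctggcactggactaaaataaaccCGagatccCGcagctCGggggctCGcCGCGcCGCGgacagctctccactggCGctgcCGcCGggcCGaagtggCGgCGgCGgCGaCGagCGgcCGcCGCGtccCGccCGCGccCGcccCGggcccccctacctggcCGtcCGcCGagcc
Neurod1: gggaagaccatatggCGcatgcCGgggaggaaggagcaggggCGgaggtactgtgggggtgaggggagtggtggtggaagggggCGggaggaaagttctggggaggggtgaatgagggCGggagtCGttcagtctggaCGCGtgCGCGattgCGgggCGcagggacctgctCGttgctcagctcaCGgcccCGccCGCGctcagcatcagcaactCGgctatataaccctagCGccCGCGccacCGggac
Sox1: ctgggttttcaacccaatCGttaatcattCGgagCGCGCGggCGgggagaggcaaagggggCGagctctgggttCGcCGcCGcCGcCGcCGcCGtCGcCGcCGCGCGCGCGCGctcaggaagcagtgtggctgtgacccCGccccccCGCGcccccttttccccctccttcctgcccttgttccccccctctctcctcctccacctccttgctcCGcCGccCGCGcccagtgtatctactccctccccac

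These stretches lie at chr4:99656049-99656298 (Foxd3, plus strand), chr4:22488367-22488616 (Pou3f2, minus strand), chr4:139832969-139833218 (Pax7, minus strand), chr2:147085346-147085595 (Nkx2-4, minus strand), chr2:79456637-79456886 (Neurod1, minus strand) and chr8:12395269-12395518 (Sox1, plus strand) of GRCm38.p6. The RefSeq start was not compared with the TSS of the mm8 table. Foxd3, Pou3f2 and Pax7 held 21, 18 and 13 CpG, and Nkx2-4, Neurod1 and Sox1 held 33, 22 and 29. All 6 were above the median of 6.00 CpG over the 32851 promoters of the table, of which 92.1% held at least 1 CpG in these 250 bases. A count of letters in this window describes the sequence and says nothing of binding or of methylation.

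Other H3K27me3-only genes of development were counted in the same way. A list of 52 further developmental transcription factors, whose names do not have the chosen starts, had a pooled ratio of 1.42 (1.34 to 1.5) and a median of 1.45, with 23 at 1.5-fold or more in the wild-type library and 2 in the null library, next to 26.3% and 8.45% of all genes. A list of 23 secreted signals and ligands had a ratio of 1.58 (1.46 to 1.71) and a median of 1.53, with 12 and 0 called (52.2% in the wild-type direction, where 37.3% of the members were). With the local scale 14 of the factors and 5 of the 23 signals were called in the wild-type direction, next to 17.6% of all genes and 31.3% of the members. The pooled ratios of these lists were then 1.23 and 1.26, beside 1.26 for the 67 members, so the higher value of the signals was not seen with that scale.

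Relatives of the members without H3K27me3 were few. The 8 H3K4me3-only genes with the same name starts (Klf5, Klf13, Foxn2, Foxj2, Sox11, Sox12, Sox30 and Six5) had a pooled ratio of 1.29 (1.13 to 1.48) but a median of 1.01. Six5, with 137 wild-type and 80 null tags (ratio 2.25), and Sox11, a factor of neural progenitors with 56 and 39 tags (1.88), were called, 2 of 8 genes, next to 26.3% of all genes and 20.7% of the H3K4me3-only class. Sox12, with 39 and 76 tags, had 0.673. The pooled value of this small list thus rested largely on Six5, the gene with the most tags in it.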

How the data were processed

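The authors sonicated and MNase-digested crosslinked chromatin, mapped 25 bp reads to mm8 and deposited each uniquely placed tag as 1 line, without normalization. Tags were placed here at the lower end of the alignment. The deposited peak list gives a count of wild-type tags and a p-value per peak, both made by the authors' peak caller with the null library as background; its fold column was not used. From the study's gene table, gene name, H3K4me3 and H3K27me3 class, strand and TSS were used. Its CpG class was not used to choose or group the members. Tags were counted per window with Python 3.11.15, numpy 2.4.6, pandas 2.3.3 and scipy 1.17.1, and drawn with matplotlib 3.10.9; the counting was tested on simulated data. Depth was 6114925 wild-type and 8020248 null tags, and a median member held 44.0 and 45.0 tags in its window, so the ratio at a single gene has a wide interval. With 1 library per genotype no test was made.

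Named members are the 8 highest and 4 lowest by ratio with at least 20 tags in all, those with a listed peak, those with the most tags within 1 kb, the Hox genes and members within 1 Mb of each other; H3K4me3-only genes with the same name starts were also named. Pou4f2, Foxn4, Foxl1, Nkx6-1, Lhx5 and Onecut3 were named after their values were seen, as were the families. Members, roles and lists were chosen with earlier results of these data known. Alternatives were 1 tag per position and strand, tags moved 116 bp along their strand, local scaling, other windows, folds and peak thresholds, and 1 member per run of members within 100 kb. Tags with 0 mismatches and leaving out Pou4f2 or Six6os1 were added after seeing the data.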

Additional observations from a re-analysis of the deposited data

How the results depend on the processing

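No paired analysis was possible because each genotype has 1 library. Of 33 comparisons of a result for the whole set with an alternative, 26 stayed within the counting interval or within 1.5 times the count. Scaling by the tags 50 to 500 kb away gave a pooled ratio of 1.26 in place of 1.38 and an average subtracted density near the TSS of 0.331 in place of 0.469. That density was 0.288 with 1 tag per position and strand and 0.227 with 0-mismatch tags, both of which keep fewer tags, and 1.10 with negative bins set to 0, which removes the null excess by construction. A fold of 2 left 8 members in place of 25, and a window of 1 kb left 3 members with a listed peak in place of 8, both by construction. The count at a fold of 2 has no share of all genes beside it and does not compare the members with other genes. Where no construction is named, the cause was not tested. Of 87 comparisons for the 29 members named by the fixed rule, 86 stayed within the interval, and Pax7 moved to 1.26 with the local scale. Of the members named later, Pou4f2 moved from 1.71 (1.40 to 2.09) to 1.11 with 1 tag per position and strand. Foxl1 moved from 1.16 (0.785 to 1.70) to 0.734 with the local scale. The setting with 0-mismatch tags, those without Pou4f2 or Six6os1 and all settings for the distance rings were chosen after seeing the data. The ratio within 1 kb over that at 50 to 100 kb was 1.24, and between 1.18 and 1.24 in the alternatives run. Depth limits single genes most, since members held 22 to 236 wild-type tags. The supplied rows are a part of the gene table, so the shares for its sets hold for these rows only.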
